A study of Danio rerio with 12 samples.

Results

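The genes described here are zebrafish keratin genes and a set of genes listed with them for cell junctions, secretion, the cell surface, calcium binding and gene regulation. They were chosen by symbol: a row belonged to the set if its symbol began with krt, or if it was cyt1, cyt1l, ppl, evpla, evplb, dspa, dspb, jupa, pkp1b, pkp3a, icn, icn2, agr2, agr1, tp63 or epcam. The rule found 32 of the 32520 genes in the tables. Of the 16 symbols listed by name, 5 (evplb, dspa, dspb, jupa and pkp1b) matched no row under those names. Rows named dsp, jup and pkp1, which may hold some of these genes, were not counted as members and are described with the related genes. The set held 22 keratins, counting cyt1 and cyt1l, and 10 other genes. One of these 10, krtcap2, entered only because its symbol begins with the same letters: it encodes a subunit of the enzyme that attaches sugars to proteins in the endoplasmic reticulum and is not a keratin.

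RNA sequencing had been done on 12 samples, each a pool of 30 whole zebrafish larvae at 120 hours post fertilization. There were 6 pools of wild type larvae (elmo3+/+) and 6 pools of larvae homozygous for a small CRISPR/Cas9 deletion in elmo3 (elmo3-/-), and the study kept both genotypes in the fli1:EGFP reporter line, which marks blood vessels. No other treatment separated the genotypes in the labels. The labels do not say whether the pools came from separate crosses, so p-values measure the spread between these pools, which may be partly technical.

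Keratins form intermediate filaments as obligate pairs of a type I and a type II chain, and these filaments carry mechanical load through epithelia by being anchored to desmosomes at cell junctions and to hemidesmosomes at the basement membrane. The larval zebrafish epidermis has a superficial layer of flat cells, the periderm, over a layer of basal keratinocytes. In zebrafish, krt4 and cyt1 are used as markers of the superficial layer, krt1-19e (also called krtt1c19e) and tp63 as markers of the basal layer, and krt8 with krt18 as the keratin pair of simple epithelia. In RNA from whole larvae, fewer cells of a type and less RNA per cell cannot be told apart.

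Total estimated counts per sample ranged from 16851426 to 17577126, so that 3 counts corresponded to 0.171 to 0.178 CPM (counts-per-million, the scale used for comparing 1 gene between samples). The 13 mitochondrial genes took 6.59% to 8.99% of the counts in wild type pools and 7.28% to 10.3% in elmo3-/- pools. The transcript of elmo3 itself lay at 2.56, 3.84 and 5.39 CPM (lowest, median and highest) in wild type and at 2.93, 4.03 and 5.13 CPM in elmo3-/- pools. Its log2 fold change was 0.03 ± 0.19 (SE, n = 6 per genotype, edgeR adjusted p = 0.967), and the genotypes overlapped throughout, so the level of this transcript is no check of the genotype labels. Over all genes, 21 of 21127 passed an adjusted p of 0.05 (12 higher and 9 lower in elmo3-/-).

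The levels of the members were first ranked in wild type pools, using TPM (transcripts-per-million), a scale on which counts are divided by transcript length so that different genes can be compared. The type II keratin krt4 headed the order. Its TPM was 5326 in the lowest, 6032 in the median and 6542 in the highest wild type pool, and it stood at rank 21 among all genes by mean TPM over the 12 samples. The wild type mean of krt4 was 6005 ± 411 TPM (SD, n = 6), and every pool of the other members lay below this range.

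krt91 followed at 2145 ± 111 TPM (SD, n = 6), with wild type pools between 2025 and 2336 TPM. The basal layer keratin krt1-19e reached 1531 ± 182 TPM and the type II keratin krt5 1288 ± 169 TPM. The adjacent genes cyt1l and cyt1 came next at 1118 ± 128 and 1091 ± 391 TPM. From krt1-19e to cyt1 the wild type ranges of neighbours in the order overlapped, so the ranges do not order neighbours among these 4 keratins. The lowest wild type pool of krt1-19e, at 1304 TPM, still lay above the highest of cyt1l, at 1275 TPM. Within every wild type pool krt1-19e was also above krt5.

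Below these 6 genes, all over 1000 TPM, the levels fell to a second tier between 100 and 400 TPM. It held icn at 389 ± 121 TPM, krt17 at 376 ± 77.7 TPM, krt8 at 347 ± 66.4 TPM, krt92 at 240 ± 71.1 TPM, krt97 at 165 ± 36.5 TPM, krt15 at 145 ± 34.7 TPM and icn2 at 115 ± 18.2 TPM. Among these, icn and icn2 encode ictacalcins, small calcium-binding proteins of the S100 family. The lowest wild type pool of cyt1, at 688 TPM, lay above the highest pool of icn, at 572 TPM, which separates the first tier from the second in TPM. The lowest cyt1 values, 688 and 753 TPM, were those of wild type pools 5 and 2. In these pools the cyt1 counts had been credited to a shorter transcript, as described below, so the gap depends on that length.

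The remaining keratins above 5 TPM in wild type were krt1-19d at 99.0 ± 37.3 TPM, krt18a.1 at 71.1 ± 12.6 TPM, krt18b at 47.3 ± 7.62 TPM, krt94 at 25.2 ± 4.18 TPM, krt222 at 11.4 ± 1.33 TPM and krt1-c5 at 5.34 ± 1.13 TPM (SD, n = 6). krtcap2, the gene that is not a keratin, stood at 50.2 ± 4.16 TPM.

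Members with other roles were generally less abundant per unit of length than the leading keratins. The cell adhesion protein gene epcam stood at 63.4 ± 14.3 TPM, and agr1, which encodes a disulfide isomerase family protein, at 47.9 ± 11.02 TPM. The wild type level of agr2, whose product is needed for secretory mucus-producing cells in mammals, was 12.03 ± 4.50 TPM. The plakin genes ppl and evpla, which in mammals encode periplakin and envoplakin of the cell cortex and desmosome, stood at 19.3 ± 6.33 and 3.63 ± 0.918 TPM. The desmosomal plaque gene pkp3a stood at 17.2 ± 3.87 TPM and tp63, the transcription factor of basal keratinocytes, at 15.6 ± 3.82 TPM.

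At the foot of the order, 6 members lay under 5 TPM in wild type: krt18a.2, krt93, evpla, krt99, krt98 and krt95. The lowest, krt95, had 0.441 ± 0.264 TPM in wild type, from 3 to 16 counts per pool, had 1 to 10 counts per elmo3-/- pool, and was the only member that did not pass the filter on low counts. krt98 rested on 5 to 21 counts per wild type pool. The levels of krt95 and krt98 sit close to the smallest amount that this depth can show. evpla was low in TPM only, with 327 to 596 counts per wild type pool.

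**Figure D1:**
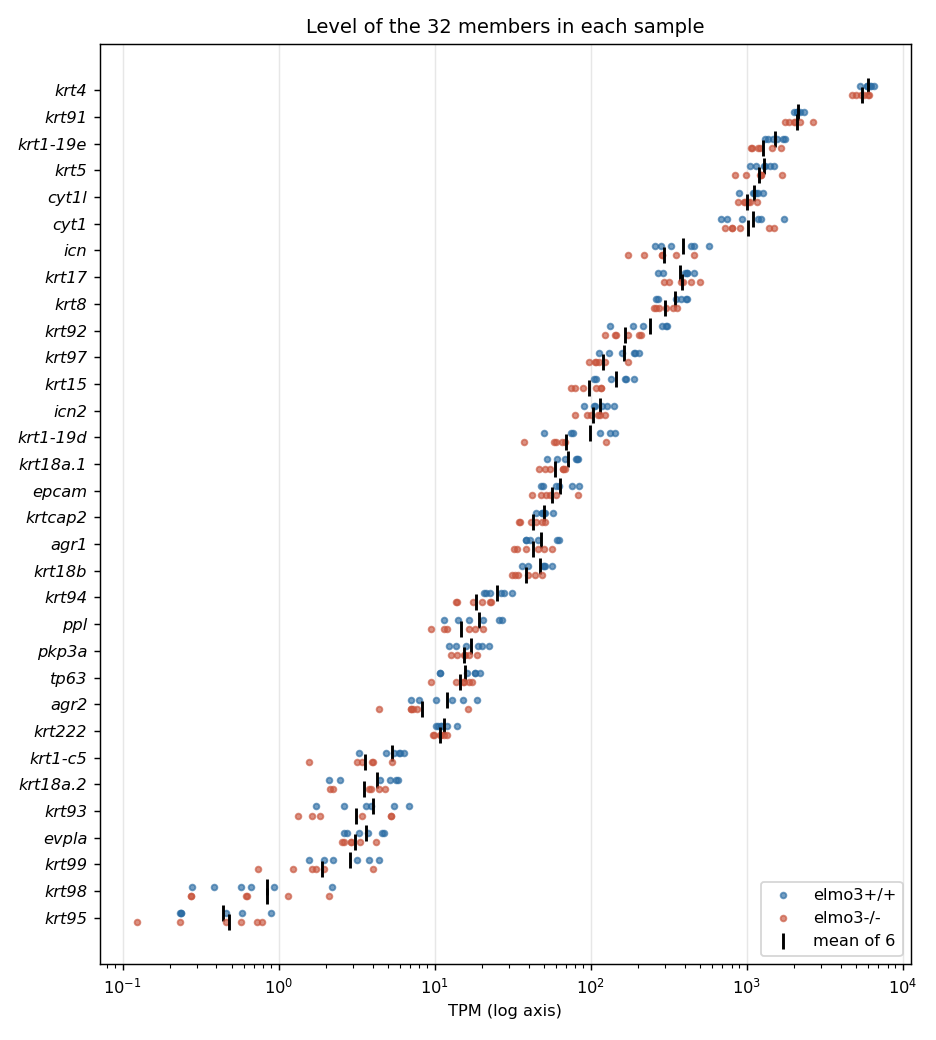
TPM of each of the 32 members in every sample on a log axis, ordered by the wild type mean, with elmo3+/+ pools in blue, elmo3-/- pools in red and a black bar at the mean of 6 pools. krt4 stands alone at 6005 TPM in wild type, 6 members lie over 1000 TPM and the points of the 2 genotypes interleave for every member.

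Of the 31 pairs of neighbours in the order, 26 overlapped in their wild type ranges. The 5 gaps lay below krt4, krt91, cyt1, krt18b and krt222, and the one below cyt1 depends on its transcript length in wild type pools 2 and 5. The order was much the same in both genotypes: 19 of the 32 members held the same rank in elmo3-/- pools and no rank differed by more than 2.

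Together the 22 keratins made up 1.47% of all TPM in wild type and 1.34% in elmo3-/- pools. Their summed TPM was 13429, 14843 and 15686 (lowest, median and highest) in wild type and 11658, 12988 and 16045 in elmo3-/- pools, and these ranges overlapped. On the TPM scale the median log2 fold change of all genes was itself -0.062 (limma, log2(TPM + 1)). This bears on every TPM sum compared between genotypes here. krt4 alone supplied 40.8% ± 1.0 of keratin TPM in wild type and 41.1% ± 2.75 in elmo3-/- pools (SD, n = 6), and the 5 highest keratins supplied 82.1% ± 2.27 and 82.9% ± 1.65.

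Among the keratins of the set, the balance between types was close to even in TPM. Types were taken from the symbols alone, and a keratin gene without such a symbol would not be counted. The type II chains krt4, krt5 and krt8 summed to 7640 ± 626 TPM in wild type, and the other 19 keratins, which include the type I chains, to 7082 ± 316 TPM (SD, n = 6). The ratio of these sums was 1.08 ± 0.0866 in wild type and 1.101 ± 0.111 in elmo3-/- pools. The simple epithelial keratins were less even: krt8 exceeded krt18a.1 by a TPM ratio of 4.88 ± 0.329 in wild type and 5.09 ± 0.398 in elmo3-/- pools. Against krt18a.1, krt18a.2 and krt18b summed, the ratio was 2.82 ± 0.157 in wild type and 2.97 ± 0.174 in elmo3-/- pools.

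The genotype comparison then asked whether loss of elmo3 altered these genes. None of the 31 members tested passed an adjusted p of 0.05 in the quasi-likelihood test of edgeR, where 0.0994% of all genes did, and the adjusted p of the members ran from 0.489 to 0.998. At an unadjusted p under 0.05, 5 members were lower in elmo3-/- pools (krt15, krt94, krt97, krt92 and krt1-c5), or 16.1% of those tested against 4.95% of all genes, and 0 were higher against 4.58% of all genes (9.52% in both directions). DESeq2 also called 0 members after adjustment and had 5 at an unadjusted p under 0.05, beside 9.33% of all genes. No member separated the genotypes completely, which 0.431% of all genes did.

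The fitted values leaned to one side. The log2 fold change of elmo3-/- over wild type was below 0 for 27 of the 31 members, against 48.9% of all genes, and the median was -0.16 against 0.00 over all genes tested. The 4 members above 0 were krt17, cyt1, krt91 and krt222. This lean was lost when 1 surrogate variable estimated from all genes was added to the model: 15 of 31 members were then below 0 and the median was 0.01. The surrogate variable itself was not balanced between the genotypes, with means of -0.14 ± 0.33 in wild type and 0.14 ± 0.21 in elmo3-/- pools (SD, n = 6), so that it can take up part of any genotype change. The median was -0.10 without wild type pool 2 and also -0.10 without elmo3-/- pool 6, and the members below 0 then numbered 24 and 23.

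**Figure D2:**
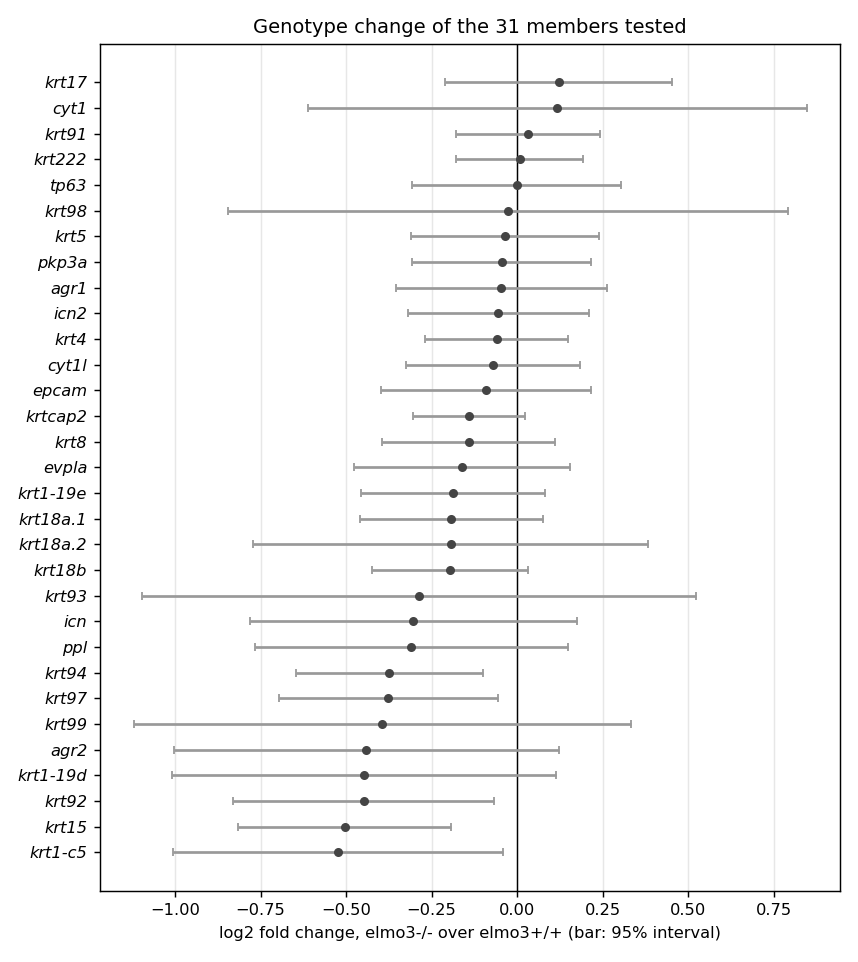
Log2 fold change of elmo3-/- over elmo3+/+ for the 31 members tested, as points with approximate 95% confidence intervals derived from the edgeR fit, ordered by the change. 27 points lie left of 0, and 5 intervals (krt15, krt94, krt97, krt92 and krt1-c5) do not reach 0 before adjustment for the number of genes tested.

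The smallest p belonged to krt15, a type I keratin. Its level was 121, 170 and 209 CPM (lowest, median and highest) in wild type and 98.3, 113 and 142 CPM in elmo3-/- pools. The elmo3-/- pools were mostly low, and the upper part of their range overlapped the lower part of the wild type range. The log2 fold change was -0.50 ± 0.14 (SE, n = 6 per genotype), with an edgeR adjusted p of 0.489.

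krt94, from the same run of genes as krt15, lay at 30.0, 35.5 and 42.3 CPM in wild type and at 22.3, 26.8 and 35.4 CPM in elmo3-/- pools. Its log2 fold change was -0.37 ± 0.12 (SE, adjusted p = 0.489 in edgeR). krt97 lay at 126, 186 and 226 CPM in wild type and at 116, 131 and 195 CPM in elmo3-/- pools, with a log2 fold change of -0.38 ± 0.14. One elmo3-/- pool, replicate 5, carried the high value of krt97, and the other 5 lay between 116 and 134 CPM.

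krt92 lay at 138, 261 and 298 CPM in wild type and at 142, 177 and 212 CPM in elmo3-/- pools, so that the lowest pool of all was a wild type one. Its log2 fold change was -0.45 ± 0.17, and -0.10 with 1 surrogate variable. krt1-c5, a type I keratin of low level, lay at 3.13, 6.16 and 7.06 CPM in wild type and at 2.02, 4.11 and 5.62 CPM in elmo3-/- pools, with a log2 fold change of -0.52 ± 0.22. The edgeR adjusted p of krt92, krt97 and krt1-c5 was 0.499. With 1 surrogate variable the log2 fold changes of the other 4 of these 5 keratins were -0.30 (krt15), -0.22 (krt94), -0.13 (krt97) and -0.21 (krt1-c5).

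Of the 6 keratins over 1000 TPM, 5 had intervals within 0.5 of 0 on the log2 scale, and cyt1 had a wide one. krt4 lay at 10294, 11630 and 12087 CPM in wild type and at 8855, 11331 and 11743 CPM in elmo3-/- pools. Its log2 fold change was -0.06 ± 0.09 with a 95% interval of -0.27 to 0.15 (edgeR adjusted p = 0.852). The intervals were -0.31 to 0.24 for krt5, -0.18 to 0.24 for krt91, -0.46 to 0.08 for krt1-19e, -0.32 to 0.18 for cyt1l and -0.61 to 0.85 for cyt1.

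The simple epithelial keratins lay slightly below 0 as well. krt8 lay at 452, 627 and 676 CPM in wild type and at 421, 537 and 591 CPM in elmo3-/- pools, with a log2 fold change of -0.14 ± 0.11. The values of krt18a.1, krt18a.2 and krt18b were -0.19 ± 0.12, -0.19 ± 0.26 and -0.20 ± 0.10. krt17 had the highest fitted value of any member, 0.12 ± 0.15, with pools at 298, 439 and 487 CPM in wild type and at 311, 445 and 556 CPM in elmo3-/-.

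krt1-19d, a further type I keratin, lay at 49.8, 97.8 and 137 CPM in wild type and at 41.1, 67.7 and 121 CPM in elmo3-/- pools, with a log2 fold change of -0.45 ± 0.25. Its pools spread widely in both genotypes. The rare keratins krt99, krt93 and krt98 had log2 fold changes of -0.40 ± 0.33, -0.29 ± 0.36 and -0.03 ± 0.37, with intervals too wide to show changes of the size seen for krt15.

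Among the members that are not keratins, agr2 had the lowest fitted value, -0.44 ± 0.25 on the log2 scale (edgeR adjusted p = 0.588). It lay at 6.07, 9.71 and 14.4 CPM in wild type and at 4.36, 6.35 and 13.0 CPM in elmo3-/- pools, and 1 elmo3-/- pool (replicate 4) reached the wild type high values. The related gene agr1 had a log2 fold change of -0.05 ± 0.14.

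The calcium-binding protein gene icn had a log2 fold change of -0.30 ± 0.22, with pools at 46.6, 67.9 and 97.0 CPM in wild type and at 30.5, 58.2 and 79.4 CPM in elmo3-/-. The value was -0.18 without wild type pool 2 and -0.18 without elmo3-/- pool 6, and -0.011 with 1 surrogate variable. Its neighbour icn2 had -0.06 ± 0.12. The TPM ratio of icn to icn2 was 3.34 ± 0.659 in wild type and 2.79 ± 0.594 in elmo3-/- pools (SD, n = 6), and these ranges overlapped.

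The junction genes spread over a similar interval. ppl had a log2 fold change of -0.31 ± 0.21, evpla -0.16 ± 0.14 and pkp3a -0.05 ± 0.12. pkp3a lies on chromosome 25, as does elmo3, with 121 protein-coding genes between them of 841 on the chromosome in the RefSeq annotation of assembly GRCz12tu. epcam had -0.09 ± 0.14, krtcap2 -0.14 ± 0.07 and tp63 -0.0015 ± 0.14, with tp63 pools at 20.6, 29.7 and 33.2 CPM in wild type and at 20.2, 29.7 and 31.1 CPM in elmo3-/-.

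Most keratin genes of the set lie in runs of consecutive protein-coding genes. On chromosome 19 the run was krt1-19d, krt1-19e, krt92, cyt1l, cyt1, krt17 and krt91, on chromosome 11 it was krt93, krt94, krt98, krt15 and krt99, and on chromosome 23 it was krt5, krt8, krt18a.1 and krt18a.2. On chromosome 22, krt222 and krt97 were adjacent. Order and chromosome follow the same RefSeq annotation.

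Neighbours differed widely in level. Within the chromosome 19 run the wild type means ranged from 99.0 TPM for krt1-19d to 2145 TPM for krt91, and within the chromosome 11 run from 0.838 TPM for krt98 to 145 TPM for krt15. The 7 keratins of chromosome 19 summed to 6599 ± 351 TPM in wild type and 6025 ± 915 TPM in elmo3-/- pools (SD, n = 6), and 4 of them were below 0 in fitted change. The 6 keratins of chromosome 11, krt95 included, summed to 131, 183 and 228 TPM (lowest, median and highest) in wild type and to 94.9, 121 and 150 TPM in elmo3-/- pools, and all 5 that were tested were below 0. The wild type and elmo3-/- sums of the chromosome 11 genes overlapped between 131 and 150 TPM. Most of each sum was krt15, with means of 145 of 179 TPM in wild type and 97.7 of 123 TPM in elmo3-/- pools.

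**Figure D3:**
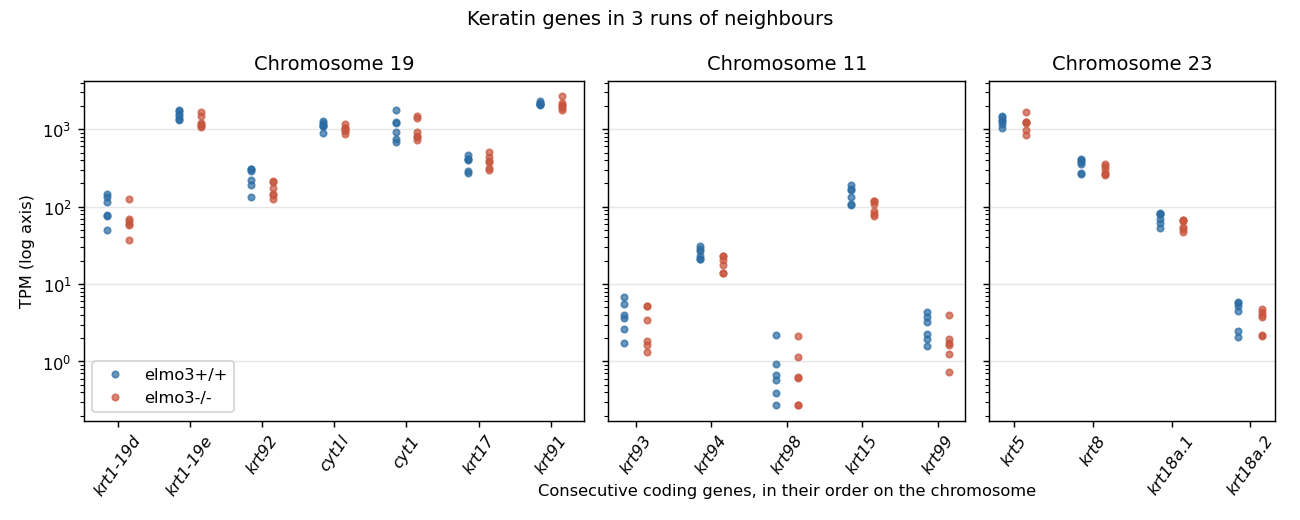
TPM on a log axis of the keratin genes in 3 runs of neighbouring protein-coding genes, in chromosomal order, with each point 1 pool (blue elmo3+/+, red elmo3-/-). Within the chromosome 19 run the wild type means range from 99.0 to 2145 TPM, and the genotypes overlap for every gene.

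The spread between pools of 1 genotype was larger than the genotype change for most members. The coefficient of variation (CV, the SD as a percent of the mean) of wild type CPM had a median of 19.7% over the 31 members tested, and that of elmo3-/- CPM 18.3%. For 27 of the 31 the fitted change, as a percent, was smaller than the larger of the CVs of the genotypes. For 30 of them the wild type CV was above the CV that counting alone would give. krt4 varied little, with a wild type CV of 5.59%, and cyt1 the most among abundant members, with 54.6%.

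Members tended to be high or low in the same pools. Among wild type pools, replicate 2 was the highest for 14 of the 31 members and among the highest 2 for 24, whereas replicate 3 was the lowest for 17 and among the lowest 2 for 25. Among elmo3-/- pools, replicate 6 was the lowest for 19 members, and replicates 4 and 5 were the highest for 13 and 10. The median of the members in each pool, as a log2 deviation from the mean of its genotype, ran from -0.37 in wild type replicate 3 to 0.21 in wild type replicate 2. The surrogate variable estimated from all genes set apart much the same pools. It was -0.42 and -0.45 in wild type pools 2 and 4, and 0.27 and 0.29 in wild type pool 3 and elmo3-/- pool 6. In elmo3-/- pool 1, where many members were high, it was 0.081. The shared pattern was thus not shown to be particular to the members.

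**Figure D4:**
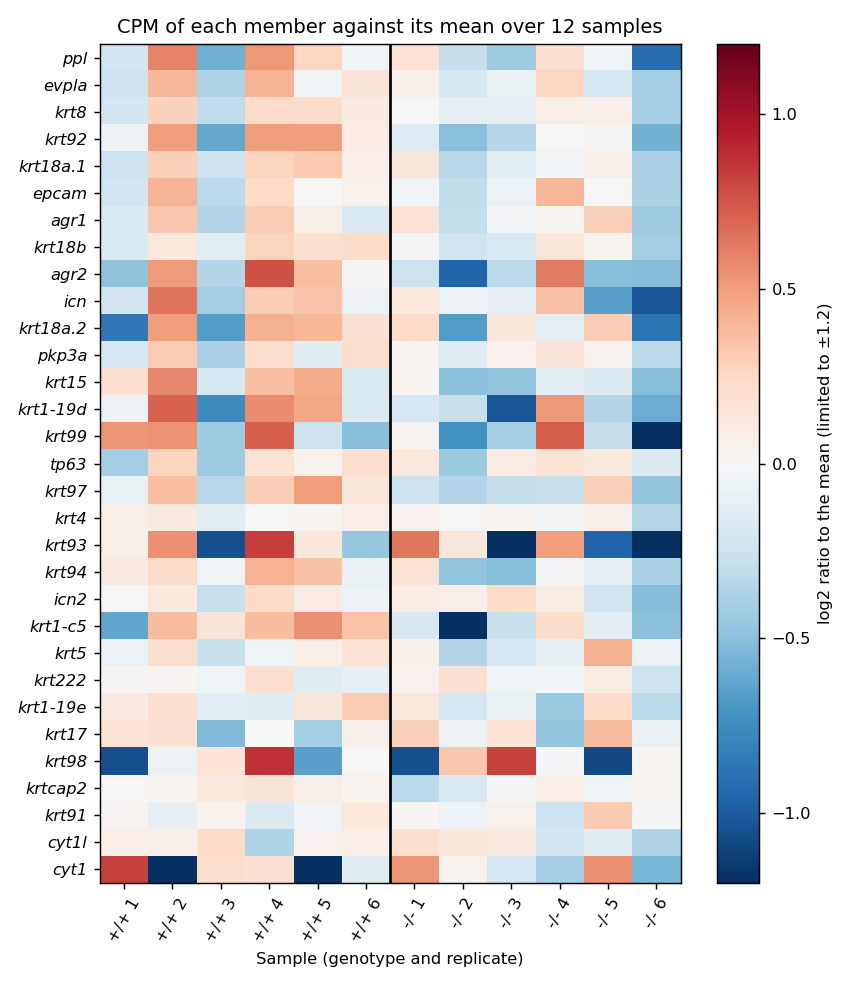
Log2 ratio of the CPM of each of the 31 tested members to its mean over the 12 samples, with elmo3+/+ pools left of the line and elmo3-/- pools right of it, red for higher and blue for lower, and the colour scale limited at ±1.2. The columns of wild type pools 2 and 4 are mostly red and those of wild type pool 3 and elmo3-/- pool 6 mostly blue.

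After the mean of each genotype was removed, the median Pearson correlation of log2 CPM between members over the 12 samples was 0.47 (Spearman 0.43), and 352 of 465 pairs were positive. These points share libraries and scaling, so the values are a description. For 21 members the median correlation with the others was above 0.5. The pair krt18a.1 and krt18a.2 had the highest value (Pearson 0.96, Spearman 0.85), followed by ppl with krt8 (0.93 and 0.94) and epcam with evpla (0.92 and 0.87). 5 members had a median correlation below 0: krt98, krtcap2, krt91, cyt1l and cyt1.

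Markers of liver and intestine were also low in wild type pools 1 and 3, which were among the lowest 2 for 17 and 25 members. The summed TPM of 2 liver genes was 635 and 1002 in wild type pools 1 and 3 and between 1885 and 2740 in the other 4 wild type pools, and it ran from 358 to 1362 in elmo3-/- pools. 3 enterocyte genes summed to 217 and 244 TPM in wild type pools 1 and 3, to between 356 and 590 TPM in the other wild type pools, and to between 137 and 393 TPM in elmo3-/- pools. elmo3-/- pool 6, in which most members were low, lay within its genotype's range for both sums, at 868 and 249 TPM. The lowest liver and enterocyte sums, 358 and 137 TPM, were those of elmo3-/- pool 2, which was among the lowest 2 of its genotype for 17 members. By contrast, elmo3-/- pool 1 was among the highest 2 for 20 members, with sums of 547 and 203 TPM. The 4 ionocyte genes with a row summed to between 8.81 and 18.1 TPM in wild type and between 6.16 and 14.7 TPM in elmo3-/- pools. No row of these lists was at 0 in all samples, and the part of these differences in the values of the members was not tested. The 2 genes with the smallest unadjusted p over all lists of other cell types were the ionocyte factor foxi3a, with a log2 fold change of -0.71 ± 0.24, and the liver transferrin tfa, with -1.31 ± 0.44. Both had an edgeR adjusted p of 0.489.

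For muscle, notochord and neurons the genotype means of the marker sums in TPM lay closer together. They were 4944 ± 325 TPM in wild type and 4972 ± 620 TPM in elmo3-/- pools for 2 muscle genes (SD, n = 6). In the same order they were 38.2 ± 3.29 and 38.7 ± 2.89 TPM for 2 notochord genes, and 224 ± 18.1 and 220 ± 45.7 TPM for 1 neuronal gene. For 3 dermal fibroblast genes they were 651 ± 99.9 and 583 ± 57.3 TPM, and for 4 mucous cell genes 6.33 ± 3.06 and 5.79 ± 2.16 TPM. The mucous cell sum ran from 3.06 to 10.9 TPM among wild type pools. Of its 3 tested genes, muc5.2 had a log2 fold change of 0.49 ± 0.18, while muc5.1 and muc5.3 had -0.35 ± 0.21 and -0.59 ± 0.43.

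One abundant member, cyt1, was set apart by how its counts related to its TPM. In wild type pools 2 and 5 its counts were 8689 and 8222, while in the other 4 wild type pools they lay between 19092 and 35313 and in elmo3-/- pools between 14217 and 29741. The transcript length implied by the 2 deposited tables, as count divided by TPM relative to the same quotient for krt4, was 0.340 and 0.351 in wild type pools 2 and 5 and lay between 0.604 and 0.606 in the other 10 samples. In these 2 pools the counts of cyt1 had thus been credited to a shorter average transcript. This gave cyt1 more TPM per count there, and so bears on its rank and on the gap below it. The neighbouring gene cyt1l had the same implied length, between 0.537 and 0.538, in all 12 samples.

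The fitted change of cyt1 had no settled direction. From CPM its log2 fold change was 0.12 ± 0.33 (SE, n = 6 per genotype, edgeR adjusted p = 0.925), and from log2(TPM + 1) in limma it was -0.08. Without wild type pools 2 and 5 together, a choice made after the implied lengths were seen, it was -0.26. It was also just below 0 without elmo3-/- pool 1 (-0.0021) or pool 5 (-0.0054), whose implied lengths did not stand apart, and the part of the implied length in the direction was not tested. cyt1 ranged 4.53-fold in CPM among wild type pools, and its lowest and highest wild type levels in TPM were 688 and 1747.

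**Figure D5:**
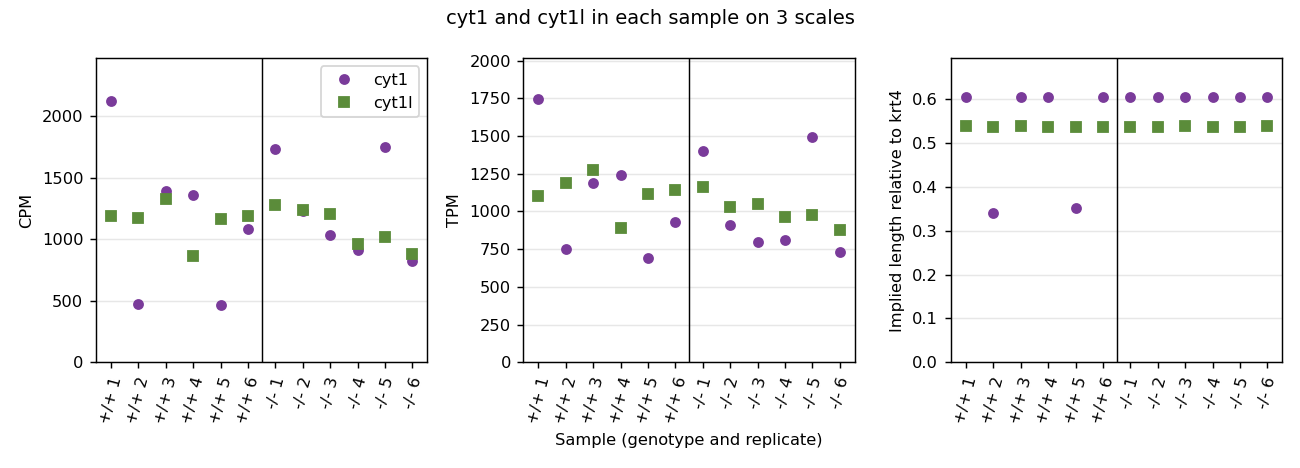
cyt1 (circles) and cyt1l (squares) in each sample as CPM, as TPM and as the transcript length implied by count over TPM relative to krt4, with the elmo3+/+ pools left of the line. The implied length of cyt1 is 0.340 and 0.351 in wild type pools 2 and 5 and 0.604 to 0.606 in the other 10 samples, while that of cyt1l is level.

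Implied lengths also varied for members of low level, by 26.9% (CV over 12 samples) for krt98, 23.5% for krt95 and 9.40% for krt99, and by less than 6% for every other member but cyt1. The counts are estimates of the program kallisto, for which the processing notes give no settings. Neighbouring genes of the same family include cyt1 and cyt1l, krt18a.1 and krt18a.2, and icn and icn2. Their values are uncertain to the extent that reads matched more than 1 of them. That extent was not tested, since no sequences were compared.

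The wider machinery of keratinocytes was followed with lists of related genes, and none of their members passed an adjusted p of 0.05. Of 6 other desmosome genes tested, 5 were below 0, with a median log2 fold change of -0.16. The 2 with the smallest p were perp, a membrane protein of desmosomes, at -0.18 ± 0.14 and the desmosomal cadherin dsg2.1 at -0.19 ± 0.18. The rows annotated as dsp, jup and pkp1, without a letter suffix, were looked up after the symbols were seen. The 5 rows all lay below 0, with dsp, the plakin that ties keratin filaments to the desmosome, at -0.33 and -0.11 for its 2 rows. The first of these was at an unadjusted p of 0.043 in edgeR and was the only 1 of the 5 under 0.05. Over all genes 4.95% were lower at that threshold.

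Genes of the basal layer and of hemidesmosomes were evenly divided. Of 14 rows tested, 6 were below 0 and 8 above, and the median log2 fold change was 0.01. The genes cd151 and col7a1l each had 2 rows among them, and those of col7a1l lay on both sides of 0 (-0.23 and 0.11). The lowest p values were those of the laminin chain gene lama3 at -0.37 ± 0.18 and of col17a1b, a hemidesmosomal collagen, at -0.31 ± 0.16.

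Of 15 epidermal regulators and adhesion genes tested, 12 were below 0, with a median log2 fold change of -0.17, and 2 were lower at an unadjusted p under 0.05. Over all genes the shares were 48.9% and 4.95%. The Krüppel-like factor gene klf17 had a log2 fold change of -0.56 ± 0.21 and lay at a mean of 8.25 ± 2.54 CPM in wild type and 5.58 ± 1.49 CPM in elmo3-/- pools (SD, n = 6, edgeR adjusted p = 0.499). The grainyhead-like factor gene grhl2a had -0.35 ± 0.16, with an edgeR adjusted p of 0.509.

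Intermediate filament genes other than keratins, with lamin genes among them, were more evenly divided in number. Of 17 rows tested, with vim in 2 of them, 10 were below 0 and 7 above. The median log2 fold change was -0.03, and this difference from the keratins was not tested. The neuronal filament genes prph and nefla had the smallest p, with log2 fold changes of -0.24 ± 0.10 and -0.17 ± 0.10.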

How the data were processed

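RNA of 12 pools of 30 larvae (6 per genotype, grouped by sample title) had been sequenced on a BGISEQ-500. The submitters' processing notes name Trim Galore 0.6.4, kallisto 0.4.6 (as written there) and the genome build GRCz11, with no further settings. The authors deposited estimated counts per gene, not scaled between samples, of which 63.0% are exactly whole with zeros counted (52.7% of those above 0), and these expected counts were rounded to whole numbers before testing. The authors also deposited TPM values, which correct for transcript length and have a common total. No samples held identical values. Identifiers were matched to symbols for 29201 of 32520 genes (89.8%). RefSeq assembly GRCz12tu served only for chromosomes and gene order, since its build differs.

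CPM was computed with TMM factors. Genotypes were compared in R 4.3.3 with edgeR 4.0.16 (quasi-likelihood test, after filterByExpr), with genotype as the only term and Benjamini-Hochberg adjustment over 21127 genes. The threshold was 0.05. SE was derived from the fitted log2 fold change and the test statistic of this fit. The 95% intervals are approximate: they used that SE with the residual degrees of freedom, not those of the test. The procedure was tested on simulated data with changes larger than that fitted for any member, so that test does not bear on changes of their size. Floors of 3 counts cover counting error only. Alternatives were DESeq2 1.42.0, other scalings and filters, limma 3.58.1 on TPM with a pseudocount of 1 or 0.1 before the log2 step, a replicate block, adding 1 surrogate variable (sva 3.50.0), and leaving out samples. Leaving out wild type pools 2 and 5 was added after seeing the data.

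The members, related lists and tests were chosen with earlier results of these data known. Named were elmo3, every member with an adjusted p under 0.05, the 12 members with the highest mean TPM, up to 5 members in each direction with the smallest unadjusted p, every member that is not a keratin, and from each related list up to 2 genes with the smallest unadjusted p, taking other cell types as 1 list. Others named, such as the low keratins, were chosen after their values were seen. One gene of the list of epidermal regulators is not reported here and was left out of its counts. A list of neuromast and taste cell genes matched no row. No sequences were analysed here.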

Additional observations from a re-analysis of the deposited data

Results flagged for a closer look

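The highest and lowest pool of each tested member were compared with the other 5 pools of the genotype, and 4 of 62 such groups held a value standing far from the rest, where chance gives about 1 in 20. agr2 was at 13.0 CPM in elmo3-/- replicate 4, with the other elmo3-/- pools between 4.36 and 7.07 CPM. krt97 was at 195 CPM in elmo3-/- replicate 5, with the others between 116 and 134 CPM. krt4 was at 8855 CPM in elmo3-/- replicate 6, the pool in which most members were lowest, with the others between 11114 and 11743 CPM. cyt1l was at 867 CPM in wild type replicate 4, with the others between 1160 and 1325 CPM.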

How the results depend on the processing

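No member passed an adjusted p of 0.05 under any alternative, and 15 to 25 genes of all those tested did, except 49 with DESeq2 (28 higher, 21 lower). Members at an unadjusted p under 0.05 numbered 5 in the main fit, beside 9.52% of all genes in both directions. They numbered 7 under total count scaling (9.61% of all genes) and 2 with 1 surrogate variable (1 of them higher, 5.94% of all genes). Each limma fit on TPM gave 8 (7.82% to 8.58% of all genes). Without wild type pools 2 and 5 there were 2 (3.12% of all genes). The median log2 fold change was then -0.10 and 24 of 31 members were below 0. Leaving out 1 sample gave 3 to 10 such members and medians from -0.23 to -0.10. There were 8 and 9 without wild type pools 1 and 3 (14.5% and 13.6% of all genes). Without wild type pool 5 there were 3 (6.10% of all genes), and without elmo3-/- pool 4 there were 10 (11.9% of all genes). The median was -0.22 under total count scaling, which lowered the median of all genes to -0.05, and 29 members were then below 0. In limma it was -0.20 (log2(TPM + 1)) and -0.23 (log2(TPM + 0.1)), with 30 below 0. The median of all genes was also lower in these 2 limma fits, at -0.062 and -0.075.

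With 1 surrogate variable the log2 fold change turned positive for 13 members and negative for 1. Positive were krt18a.1 (0.034), krt18a.2 (0.32), krt93 (0.11), krt5 (0.10), krt8 (0.061), agr1 (0.19), agr2 (0.021), epcam (0.15), evpla (0.075), icn2 (0.037), pkp3a (0.14), ppl (0.069) and tp63 (0.25), and negative was cyt1 (-0.033). Of the related genes named, perp (0.074) and dsg2.1 (0.10) turned positive. Total count scaling turned elmo3 (-0.017), krt91 (-0.021) and krt222 (-0.051). Limma on log2(TPM + 1), with or without the filter, turned elmo3 (-0.022), krt91 (-0.048), cyt1 (-0.078) and krt222 (-0.069), and with log2(TPM + 0.1) they were -0.034, -0.048, -0.078 and -0.074. Leaving out wild type pools 2 and 5 turned krt5 (0.026), cyt1 (-0.26), krt222 (-0.020), agr1 (0.050), epcam (0.0027), krt18a.2 (0.024) and tp63 (0.085), and krt92 was then at -0.27 and icn at -0.085. Leaving out 1 sample moved agr1 from -0.12 to 0.023, cyt1 from -0.044 to 0.38, elmo3 from -0.066 to 0.14, icn2 from -0.11 to 0.027, krt222 from -0.031 to 0.055, krt5 from -0.15 to 0.024, krt91 from -0.036 to 0.080, pkp3a from -0.11 to 0.019 and tp63 from -0.072 to 0.073. The cause was not tested, other than that fewer samples enter these last fits.

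Same-numbered pools of the genotypes had correlated deviations in 4 of 6 pairs at over 0.1 (from -0.32 to 0.43), and 3 of 6 wild type pools were closest to their own number, so the numbers were not taken to pair the samples. With the replicate block 17 genes were called, and 7 members had an unadjusted p under 0.05, beside 10.6% of all genes. The median of the members was then -0.15 with 26 of 31 below 0, and tp63 was at 0.0090. Counts of 3 to 21 in wild type pools limit krt95 and krt98.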
